A study of Homo sapiens with 6 samples.

Results

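The G1 cyclins, their kinases, the CIP/KIP inhibitors and the retinoblastoma protein gene were described here as 1 group of 10 genes. They were chosen by symbol, from a list drawn up with earlier results of these data known, and all 10 were found among the 14959 genes of the deposited table. They are the D-type cyclins CCND1, CCND2 and CCND3, the E-type cyclins CCNE1 and CCNE2, the kinases CDK4 and CDK6, the inhibitors CDKN1A and CDKN1B, and RB1. The cells were UM-SCC1, a long-established line of head and neck squamous cell carcinoma (HNSCC), and their RNA was profiled by sequencing. In 3 libraries the cells had received miR-204-5p mimics, which are synthetic double-stranded RNAs that act like the mature miRNA, and in the other 3 they had received control mimics. RNA was taken 48 h after transfection, and each group comes from 3 independent experiments according to the series' design text. The comparison asks how mRNA levels in this line differ when miR-204-5p is raised. It covers 1 cell line, 1 time and a transient transfection, and the level of the miRNA itself was not analysed here.

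Cells enter the cycle from G1 when cyclin D, paired with CDK4 or CDK6, and then cyclin E, paired with CDK2, phosphorylate the retinoblastoma protein. That releases E2F transcription factors, which switch on the genes for DNA synthesis. The CIP/KIP proteins p21 and p27 bind cyclin-kinase complexes, and p21 is induced by p53. In squamous carcinomas of the head and neck, CCND1 is often amplified.

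A miRNA binds mRNAs mainly through its seed, bases 2 to 8 from its 5′ end. The mature miR-204-5p (RefSeq, GRCh38.p14, chr9:70810031-70810052, minus strand, 22 bases) is printed 5′ to 3′ with the seed in capitals, since every site described here is read from it.
miR-204-5p: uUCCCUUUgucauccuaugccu
The longest protein-coding 3′UTR of each gene in GENCODE 29 (GRCh38) was searched on the transcript strand for AAAGGGAA (8mer), AAAGGGA (7mer-m8), AAGGGAA (7mer-A1) and AAGGGA (6mer), and a shorter match inside a longer one was not counted. Matches of at least 7 bases were present in 3 of the 10 genes, against 27.1% of the 14664 genes with such a 3′UTR. These are CCND1, CCND2 and CDK6. Their 6 sites of at least 7 bases are shown as the longest stretches where the mimics' seed could pair with a member's mRNA. The 6mers that these genes also hold are not printed. Each window holds 30 bases, 5′ to 3′ on the transcript, with the match in capitals.
CCND1 7mer-A1: tttgataccagAAGGGAAagcttcattctc
CCND2 7mer-A1: aagtacagcatAAGGGAAtcccttgtatat
CCND2 8mer: gaatagctttaAAAGGGAAattaatgctga
CDK6 7mer-A1: tttcccatttcAAGGGAAgaggcaaccaca
CDK6 7mer-m8, first: attataaaataAAAGGGAttttaacaacca
CDK6 7mer-m8, second: gacttattgggAAAGGGAgaactgcagtgg
The CCND1 window lies at chr11:69651374-69651403 on the plus strand, in exon 5, and its match begins at base 103 of the 3192 bases after the stop codon. Both CCND2 windows lie on the plus strand in exon 5, at chr12:4300212-4300241 and chr12:4304328-4304357, with matches that begin at bases 214 and 4330 of a 3′UTR of 5341 bases. The CDK6 windows lie on the minus strand in exon 8, at chr7:92610921-92610950, chr7:92606975-92607004 and chr7:92605339-92605368, with matches that begin at bases 4201, 8147 and 9783 of a 3′UTR of 10219 bases. CCND3, CCNE1, CDK4, CDKN1A and CDKN1B held at most the 6mer, and CCNE2 and RB1 held none of these letters in that window. A match is a description of the sequence and not a shown binding site.

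Of the 10 genes, CCND1, CCND2 and CDK4 were higher with miR-204-5p mimics, CCNE1 and CDKN1A were lower, and the other 5 did not pass the test. Values are FPKM, fragments scaled to transcript length and to the library's mapped fragments, so that levels of different genes can be set side by side. Differences were tested with limma on log2(FPKM + 1) over all 14959 genes, at a Benjamini-Hochberg adjusted p under 0.05, and a log2 fold change on that scale understates the change of low genes. The 5 called genes of 10 are to be read against 40.8% of all genes called, with 23.9% higher and 16.8% lower. The excess of higher calls over all genes, 3578 against 2520, shrank to 3080 against 2885 with equal sums and to 3043 against 3026 with quantile normalization. Without mimics replicate 1, control replicate 1 or control replicate 2, 3 of the 10 were called. The groups did not overlap in 6 of the 10 genes, against 53.6% of all genes. They were higher with mimics in 3 (30.9% of all genes) and lower in 3 (22.7% of all genes). The median log2 fold change was -0.02 over the 10 genes and 0.03 over all genes. In these bulk libraries, a different share of cells in a cycle phase and a different amount of RNA per cell cannot be told apart.

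**Figure D1:**
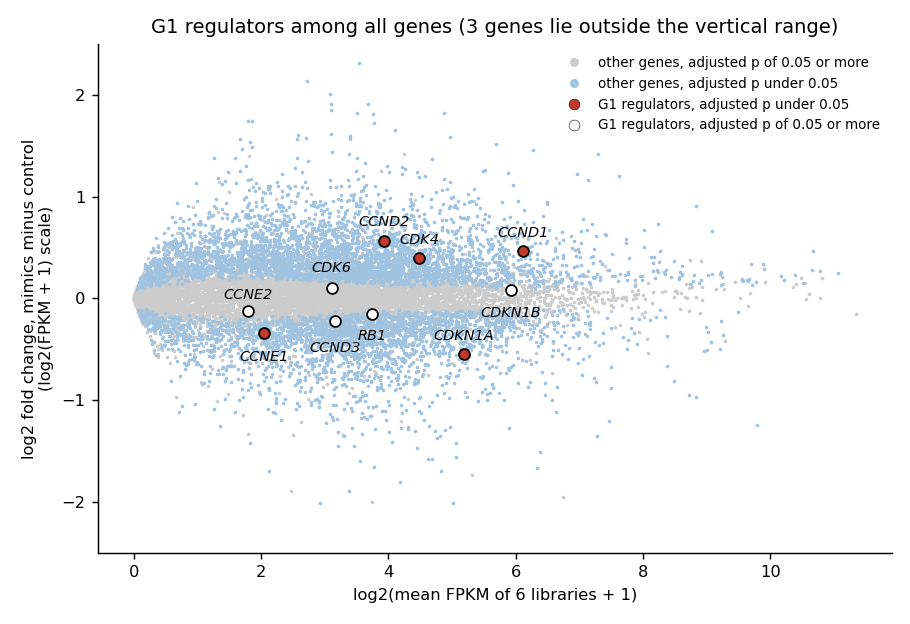
Log2 fold change, mimics minus control on the log2(FPKM + 1) scale, against the log2 of the mean FPKM of 6 libraries plus 1, for all genes, with the 10 G1 regulators as large labelled circles, filled where the adjusted p was under 0.05. CCND1, CCND2 and CDK4 lie above 0 and CDKN1A and CCNE1 below, all inside the cloud of other called genes, and 3 genes lie outside the vertical range.

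The libraries resembled each other closely, with Spearman correlations across genes of 0.9899 to 0.9908 within groups and 0.9733 to 0.9756 between them. Read counts were not recorded in the table. The depth inferred from the best-fitting step in FPKM times transcript length was 13.05 to 16.38 M fragments (M, mega) per library. The step was searched from 0.05 to 0.1 only, which bounds the depth, so fragment numbers hold only if that step is right. At that depth, with 1 listed transcript length per gene, CCNE1 rested on about 62 to 120 fragments per library. CCNE2 rested on 86 to 156, CCND3 on 151 to 317 and CCND1 on 3338 to 5559. The squamous label was checked with KRT5, KRT14, KRT17, KRT6A, TP63, SFN, DSG3, ITGA6 and ITGB4, which were all in the table at mean levels of 2.07 to 321 FPKM. Their summed level was 918 to 994 FPKM with miR-204-5p mimics and 1010 to 1030 FPKM in controls, and 4 of the 9 were called higher and 4 lower. Of 10 markers of immune, endothelial and fibroblast cells, DCN was not in the table and 7 were under 1 FPKM, while CD68 and COL1A1 had means of 10.2 and 8.91 FPKM. VWF, PDGFRB and COL1A2, all under 1 FPKM, were called higher. The 9 markers of other cell types in the table summed to 20.5 to 22.2 FPKM with mimics and 19.4 to 21.2 FPKM in controls. The part of either marker set in the results was not tested.

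CCND1 encodes cyclin D1, the most abundant of the 3 D-type cyclins in these libraries (ENSG00000110092, chr11:69641087-69654474). Its level was 77.2, 80.9 and 79.1 FPKM in miR-204-5p mimics replicates 1, 2 and 3 and 55.1, 58.1 and 58.0 FPKM in the controls. Every mimics library lay above every control library. The group means were 79.1 ± 1.86 and 57.1 ± 1.74 FPKM (SD, n = 3 each), a ratio of 1.39. On the log2 scale CCND1 rose by 0.46 (SE 0.0381, 95% interval 0.37 to 0.56, limma adjusted p = 0.000279), and 15.1% of all genes changed by more in either direction. CCND1 was called in all 12 alternative analyses run. The last 1399 bases of CCND1 overlap ORAOV1 on the opposite strand, whose mean was 5.74 FPKM with mimics and 4.14 FPKM in controls, and the sources used here do not say whether the counting used strand.

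CCND2 encodes cyclin D2, a close relative with the same kinase partners (ENSG00000118971, chr12:4273772-4305350). It was measured at 16.3, 17.6 and 17.8 FPKM with miR-204-5p mimics and at 10.8, 11.7 and 11.5 FPKM in controls. The groups were separate, and the lowest mimics library exceeded the highest control. The means were 17.3 ± 0.823 and 11.3 ± 0.50 FPKM (SD, n = 3 each). At 0.57 on the log2 scale (SE 0.0545, 95% interval 0.44 to 0.70, limma adjusted p = 0.000480), CCND2 rose, and 9.74% of all genes changed by more in either direction. It is also the sole gene of the 10 with an 8mer. Among the 961 genes with an 8mer as best match and a mean of at least 1 FPKM, the median log2 fold change was -0.14, 40.6% were called lower, 15.2% were called higher, and 3.64% had a higher log2 fold change than CCND2. For CCND1, with a 7mer-A1 as best match, 7.66% of 992 such genes had a higher log2 fold change, and their median was -0.02.

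CCND3, which encodes cyclin D3 (ENSG00000112576, chr6:41934933-41941848, minus strand), varied most between libraries of 1 group, relative to its level. The interval is that of 1 of its 23 annotated transcripts, and the part of transcript assignment in this spread was not tested. Its level was 5.56, 6.68 and 9.75 FPKM with miR-204-5p mimics and 9.34, 7.21 and 9.20 FPKM in controls. The groups overlapped, since mimics replicate 3 was above all controls and the other mimics libraries were below them. Its log2 fold change was -0.23 (SE 0.190, 95% interval -0.68 to 0.23, limma adjusted p = 0.386), and without mimics replicate 3 it was -0.43 with an adjusted p of 0.0562.

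**Figure D2:**
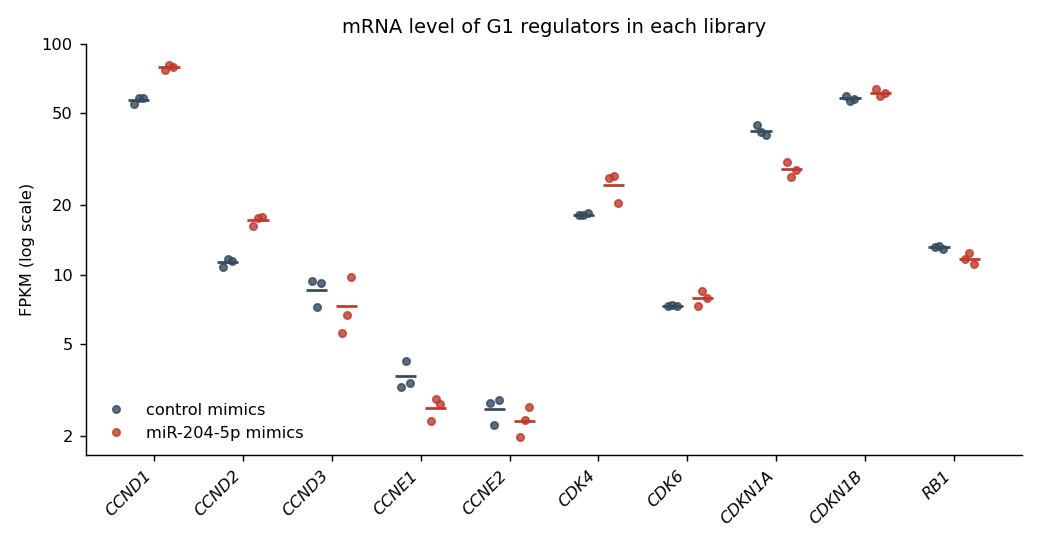
FPKM on a log axis for each of the 10 genes, with 1 point per library, coloured by group, and bars at the group means. The mimics libraries lie above the controls for CCND1, CCND2 and CDK4 and below them for CCNE1, CDKN1A and RB1, and overlap with them for the other 4 genes.

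CDK4, the kinase that pairs with D-type cyclins (ENSG00000135446, chr12:57747727-57752447, minus strand), was measured at 26.2, 26.8 and 20.5 FPKM with miR-204-5p mimics. In controls it was 18.1, 18.1 and 18.4 FPKM, so the groups did not overlap, but mimics replicate 3 lay close to the controls. The means were 24.5 ± 3.50 and 18.2 ± 0.208 FPKM (SD, n = 3 each). The log2 fold change was 0.40 (SE 0.0996, 95% interval 0.16 to 0.64, limma adjusted p = 0.0192). This call depended on single libraries. The adjusted p was 0.0620 without mimics replicate 1, 0.0606 without mimics replicate 2, 0.0557 without control replicate 1 and 0.0561 without control replicate 2, while without mimics replicate 3 the log2 fold change was 0.52 with an adjusted p of 0.00113. The 506 bases that CDK4 shares with TSPAN31 on the opposite strand add the same doubt on strand as for CCND1, and TSPAN31 had means of 5.69 FPKM with mimics and 6.69 FPKM in controls.

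CDK6, the other kinase of D-type cyclins (ENSG00000105810, chr7:92604921-92833917, minus strand), carries the 3 sites printed above. It was measured at 7.33, 8.51 and 7.95 FPKM with miR-204-5p mimics and at 7.30, 7.37 and 7.28 FPKM in controls. Mimics replicate 1 lay between control replicates 1 and 2, so the groups overlapped. For CDK6 the log2 fold change was 0.10 (SE 0.0621, 95% interval -0.05 to 0.25, limma adjusted p = 0.246). The interval allows a change of either sign and of at most 0.25 upward. The 1134 genes of at least 1 FPKM with a 7mer-m8 as best match had a median of -0.06, and 31.3% of them had a higher log2 fold change than CDK6.

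CCNE1 encodes cyclin E1, which activates CDK2 late in G1 (ENSG00000105173, chr19:29811898-29824308). Its level was 2.31, 2.89 and 2.75 FPKM with miR-204-5p mimics and 3.26, 4.22 and 3.37 FPKM in controls. All mimics libraries were below all controls. The means were 2.65 ± 0.302 and 3.62 ± 0.522 FPKM (SD, n = 3 each), a ratio of 0.732. The log2 fold change was -0.34 (SE 0.105, 95% interval -0.59 to -0.09, limma adjusted p = 0.0415). The call was lost on leaving out any 1 of the 6 libraries, with adjusted p from 0.0512 to 0.112 and log2 fold changes from -0.39 to -0.25. At the inferred depth, counting error alone would be about 12.7% in the library with fewest fragments.

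CCNE2, the gene of cyclin E2 (ENSG00000175305, chr8:94879770-94896678, minus strand), was measured at 1.98, 2.34 and 2.66 FPKM with miR-204-5p mimics and at 2.76, 2.23 and 2.86 FPKM in controls. The groups overlapped. The log2 fold change was -0.12 (SE 0.107, 95% interval -0.38 to 0.13, limma adjusted p = 0.402). Counting error would be up to about 10.8% at the inferred depth. Its first 912 bases overlap NDUFAF6 on the opposite strand, whose mean was 3.05 FPKM with mimics and 3.46 FPKM in controls, above CCNE2 itself in both groups and lower with mimics as CCNE2 was.

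CDKN1A encodes p21, an inhibitor of cyclin-kinase complexes that is a target of p53 (ENSG00000124762, chr6:36676460-36687337). It was measured at 30.8, 26.5 and 28.4 FPKM with miR-204-5p mimics and at 44.3, 41.6 and 40.3 FPKM in controls. Every mimics library was lower than every control. The means were 28.6 ± 2.13 and 42.1 ± 2.04 FPKM (SD, n = 3 each), a ratio of 0.679. On the log2 scale CDKN1A changed by -0.54 (SE 0.0638, 95% interval -0.70 to -0.39, limma adjusted p = 0.00102), and CDKN1A was called in all 12 alternative analyses, between -0.60 and -0.49. Its best match to the seed is a 6mer, and among 1443 genes with a 6mer as best match and at least 1 FPKM the median was 0.02 and 95.4% had a higher log2 fold change.

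CDKN1B encodes p27, the other CIP/KIP inhibitor of the group (ENSG00000111276, chr12:12717124-12722371). It was measured at 63.6, 59.3 and 61.2 FPKM with miR-204-5p mimics and at 59.4, 56.8 and 57.8 FPKM in controls. The groups overlapped by a narrow margin, since control replicate 1 exceeded mimics replicate 2. The log2 fold change was 0.08 (SE 0.0394, 95% interval -0.01 to 0.17, limma adjusted p = 0.155).

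RB1, the gene of the retinoblastoma protein that the G1 kinases phosphorylate (ENSG00000139687, chr13:48303726-48481890), was measured at 11.6, 12.4 and 11.2 FPKM with miR-204-5p mimics. In controls it was 13.1, 13.3 and 12.9 FPKM, so the groups did not overlap. RB1 had a log2 fold change of -0.15 (SE 0.0511, 95% interval -0.27 to -0.03), and the limma adjusted p of 0.0575 missed the threshold. It passed in 5 of the 12 alternatives, with adjusted p from 0.0307 to 0.0489. LPAR6 lies inside RB1 on the opposite strand at 0.0733 to 0.171 FPKM in the 6 libraries.

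**Figure D3:**
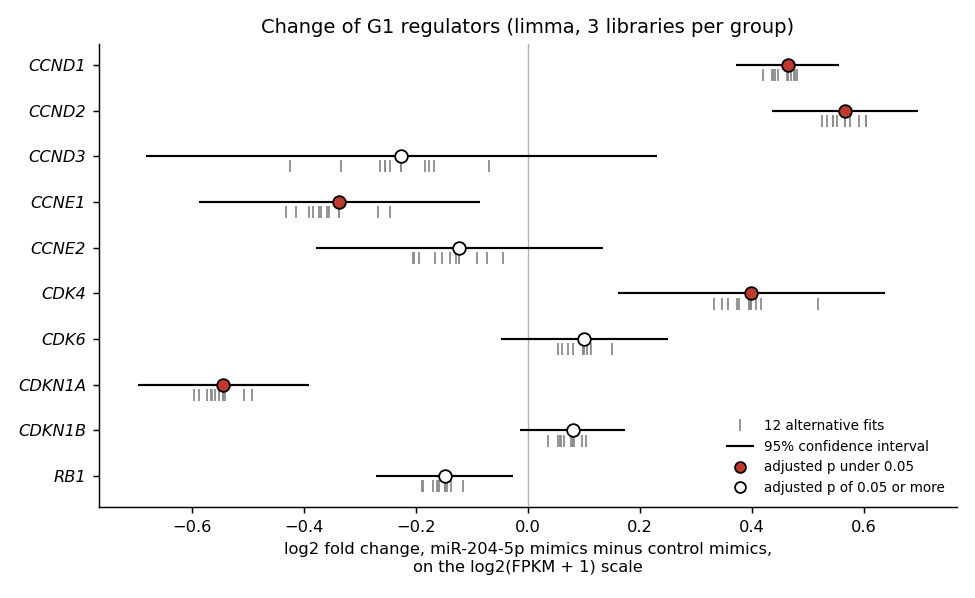
Log2 fold change of the 10 genes, mimics minus control on the log2(FPKM + 1) scale, with 95% intervals from limma, filled points where the adjusted p was under 0.05, and small ticks for the 12 alternative analyses. The intervals of CCND1, CCND2, CDK4, CCNE1, CDKN1A and RB1 lie to 1 side of 0, and those of CCND3, CCNE2, CDK6 and CDKN1B include it.

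The 10 genes were also ordered by level. In controls CDKN1B at 58.0 FPKM and CCND1 at 57.1 FPKM were the highest and overlapped, and CDKN1A, CDK4, RB1 and CCND2 followed in that order without overlap. With miR-204-5p mimics CCND1 was above CDKN1B without overlap, CDKN1A and CDK4 overlapped, and CCND2 at 17.3 FPKM was above RB1 at 11.7 FPKM. CCND3 and CDK6 overlapped in both groups, below the genes named before them. CCNE1 and CCNE2 were the lowest in both groups and overlapped with miR-204-5p mimics. These comparisons are between levels per transcript length, and no test of the order was made.

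Summed over the 3 D-type cyclins, the level was 99.1, 105 and 107 FPKM with miR-204-5p mimics and 75.2, 77.1 and 78.7 FPKM in controls. The sums did not overlap. The means were 104 ± 4.04 and 77.0 ± 1.77 FPKM (SD, n = 3 each), a difference of 26.7 FPKM, and an exact two-sided permutation test gave p = 0.1, the smallest that 3 against 3 can give. CCND1 made up 76.3% ± 1.95 of the sum with mimics and 74.1% ± 1.13 in controls, which overlapped (exact two-sided permutation p = 0.2), and CCND2 made up 16.6% ± 0.156 and 14.7% ± 0.465 (SD, n = 3 each). CCND3 made up 7.03% ± 1.86 with mimics and 11.2% ± 1.60 in controls, and both CCND2 and CCND3 shares were separate between groups (exact permutation p = 0.1 each). The CCND3 level itself overlapped between groups, and its share is taken of a sum in which CCND1 and CCND2 were higher with mimics.

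The kinases CDK4 and CDK6 together were at 33.5, 35.3 and 28.4 FPKM with miR-204-5p mimics and at 25.4, 25.4 and 25.7 FPKM in controls. The means were 32.4 ± 3.58 and 25.5 ± 0.180 FPKM (SD, n = 3 each), with no overlap. CDK4 made up 75.4% ± 3.09 and 71.3% ± 0.335 of that sum. For the E-type cyclins the sums were 4.97 ± 0.603 and 6.23 ± 0.207 FPKM (SD, n = 3 each). The CIP/KIP inhibitors summed to 94.4, 85.9 and 89.6 FPKM with mimics and 104, 98.5 and 98.1 FPKM in controls, and p21 (CDKN1A) made up 31.7% ± 0.857 of the sum with mimics against 42.0% ± 0.837 in controls (SD, n = 3 each). The sums and shares of this paragraph were separate between the groups, and each exact two-sided permutation test gave p = 0.1, which is the smallest that the design allows.

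**Figure D4:**
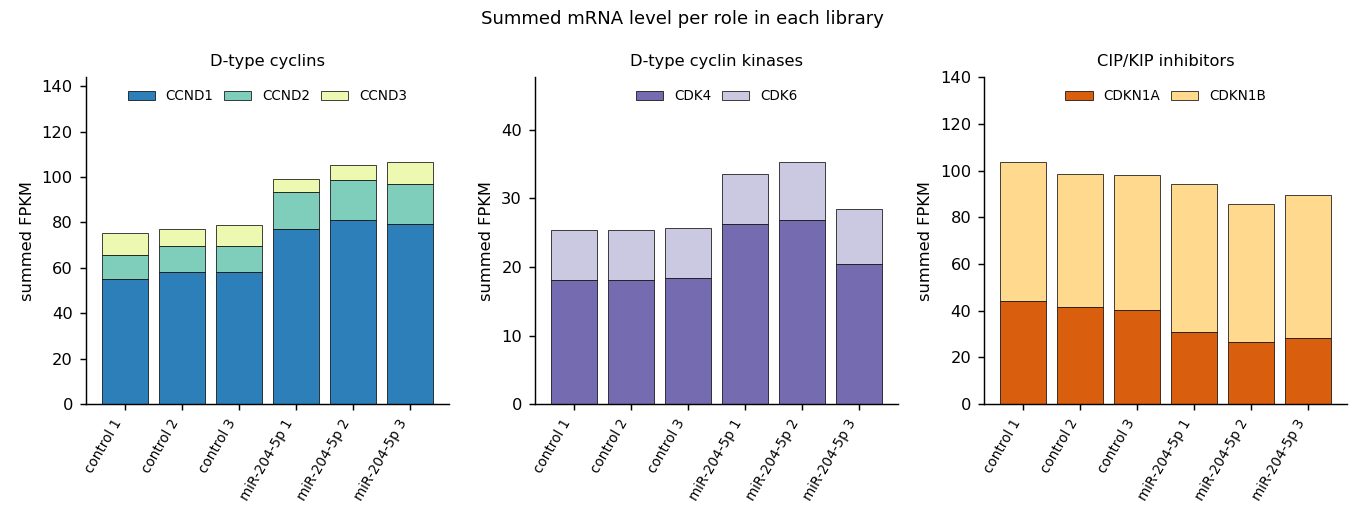
Stacked bars of FPKM, 1 bar per library and 1 colour per gene, for the D-type cyclins, their kinases and the CIP/KIP inhibitors. Each miR-204-5p mimics bar is higher than each control bar for the cyclins and the kinases, and lower for the inhibitors, where the CDKN1A segment falls from 42.0% to 31.7% of the bar on average.

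Genes that work with the 10 were taken from lists by role. Of 23 partners at the G1/S boundary, 5 rose, 5 fell and 13 did not pass, so that 43.5% were called, close to the 40.8% of all genes. MNAT1, an assembly factor of the CDK-activating kinase, rose by 1.60 on the log2 scale (limma adjusted p = 0.000154), from 4.25 ± 0.791 to 14.8 ± 0.603 FPKM (SD, n = 3 each). CDK2, the partner of cyclin E, rose by 0.71 (adjusted p = 0.00104), from 13.4 ± 1.17 to 22.6 ± 1.99 FPKM. E2F5 rose by 0.60 (adjusted p = 0.000561). CDKN2C and CDKN2B, which encode the INK4 inhibitors p18 and p15 of CDK4 and CDK6, fell by 0.78 and 0.60 (adjusted p = 0.000171 and 0.000829), and CCNA2, the gene of cyclin A2, fell by 0.61 (adjusted p = 0.000211). The other INK4 genes of the list, CDKN2A and CDKN2D, did not pass, with log2 fold changes of -0.05 and 0.005 (limma adjusted p = 0.356 and 0.93).

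Of 12 genes for the turnover of G1 regulators, 4 rose and 3 fell, against 23.9% of all genes higher and 16.8% lower. The higher calls numbered 4 in each of the 12 alternatives, but lower calls numbered 1 with the replicate block and without control replicate 1, 2 or 3, and 2 without any 1 of the mimics replicates. SKP2, the ubiquitin ligase subunit that recognises p27, rose by 0.81 on the log2 scale (limma adjusted p = 0.000175), from 12.8 ± 0.779 to 23.1 ± 0.996 FPKM (SD, n = 3 each). Its cofactor CKS1B rose by 0.32 (adjusted p = 0.000864) and FBXO4, which recognises cyclin D1, rose by 0.79 (adjusted p = 0.000919). AMBRA1, a substrate receptor for D-type cyclins, fell by 0.39 (adjusted p = 0.0150), CUL1 by 0.33 (adjusted p = 0.0468) and CUL3 by 0.29 (adjusted p = 0.0394), the last pair being cullin scaffolds.

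Of 18 E2F targets, 12 rose (23.9% of all genes did), none fell (16.8% of all genes did) at the adjusted threshold or at an unadjusted p under 0.05 in limma, and the median log2 fold change was 0.37 against 0.03 over all genes. TYMS, thymidylate synthase, rose most, from 16.1 ± 1.55 to 32.7 ± 1.48 FPKM (SD, n = 3 each), which is 0.98 on the log2 scale (limma adjusted p = 0.000195). MCM3, a subunit of the replicative helicase, rose by 0.57 (adjusted p = 0.000767) and CDC45, its partner, by 0.56 (adjusted p = 0.000465). The E2F target list did not hold CCNE1, CCNA2 and RBL1, counted elsewhere here and called lower (log2 fold changes -0.34, -0.61 and -0.25). Nor did it hold CDKN2C, called lower (-0.78), or SKP2 and E2F8, called higher (0.81 and 0.19). E2F1, E2F2, E2F3, E2F7, CCNE2 and CDC25A, also outside it, were not called. Of 20 p53 targets, which did not hold CDKN1A, 4 rose and 7 fell, against 23.9% and 16.8% of all genes, with a median of 0.01 that was below 0 under the 3 rescalings and without mimics replicate 1, mimics replicate 3 or control replicate 2. GADD45A, DDB2 and PLK3 rose by 0.80, 0.71 and 0.60 (adjusted p = 0.00512, 0.00916 and 0.00141). BTG2, TP53INP1 and SESN2 fell by 0.84, 0.76 and 0.56 (adjusted p = 0.000116, 0.000280 and 0.000175). Of 15 upstream regulators, 3 rose and none fell, against the same shares of all genes, namely JUN by 0.45, SMAD3 by 0.23 and FOXO3 by 0.22 (limma adjusted p = 0.0370, 0.0262 and 0.0309), and at an unadjusted p under 0.05 the counts were also 3 and 0. That count depended on single libraries, and it was 0 in limma without mimics replicate 2 or control replicate 2 (3 at an unadjusted p under 0.05 in each case). It was 1 without mimics replicate 3, and without control replicate 3 it was 1 gene, which was lower. MYC ranged from 2.73 to 39.3 FPKM across the mimics libraries and from 1.99 to 18.6 FPKM across controls and did not pass. Among the 24 genes named by rule from the lists, E2F5, CCNA2, CDKN2B, TYMS, PLK3 and TP53INP1 overlap a gene on the opposite strand. Only the 1 interval given per gene was searched, so overlaps outside it would be missed.

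**Figure D5:**
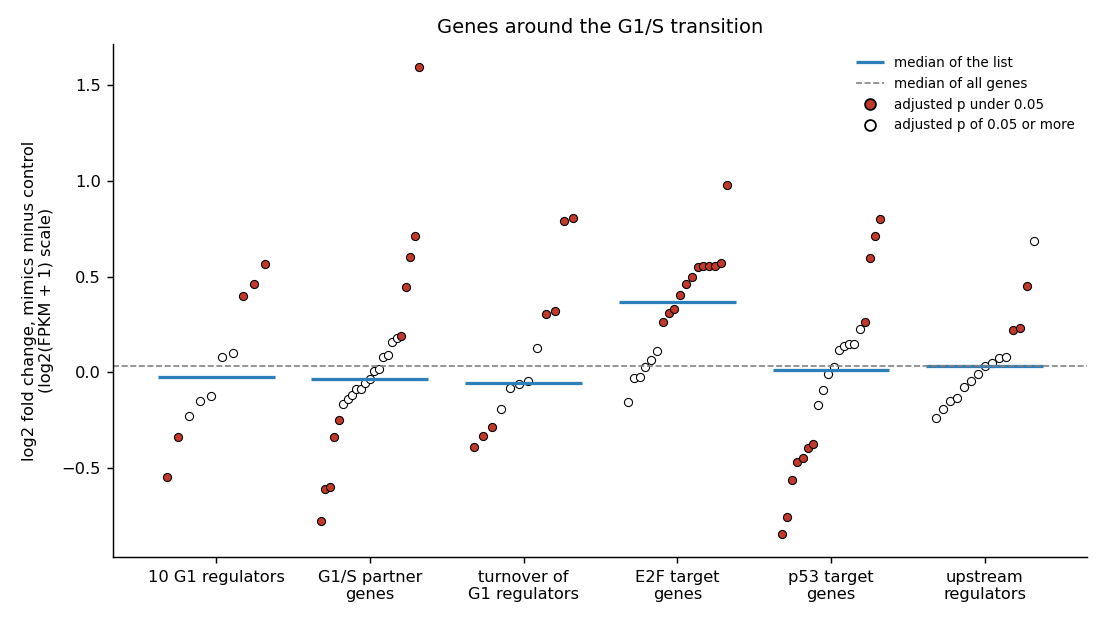
Log2 fold change, mimics minus control on the log2(FPKM + 1) scale, of each of the 10 G1 regulators and each gene of the 5 lists, ordered by value within a list, with filled points where the limma adjusted p was under 0.05, blue bars at list medians and a dashed line at the median of all genes. The E2F targets have a median of 0.37 and the other 4 lists and the 10 regulators have medians between -0.05 and 0.03.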

How the data were processed

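RNA-seq libraries of UM-SCC1 (3 after miR-204-5p mimics and 3 after control mimics) were analysed from the deposited table of 14959 genes. The FPKM values were computed by the authors from total RNA. The submitters' processing notes name HISAT2, StringTie and hg38, and versions, strand setting and annotation are not given in the sources used here. The table's columns of fold changes, p-values and FDR hold the authors' own comparison and were not used. Depth was inferred from steps in FPKM times transcript length over 1174 genes with 1 transcript, and 18.1% to 21.3% of their low values were whole multiples (tolerance 0.01), so counts were not recovered. Steps outside 0.05 to 0.1 were not tried.

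FPKM was tested on log2(FPKM + 1) with limma 3.58.1 (lmFit, eBayes with trend) in R 4.3.3, with no filter and no further scaling, two-sided, Benjamini-Hochberg adjusted over all genes. The p-values measure the spread between these libraries. The procedure was also run on simulated data with far fewer changed genes than were called here, and that run supports no call. Sums and shares were compared by exact permutation with scipy 1.17.1 in Python 3.11.15. Sites were read from GENCODE 29, where all 10 listed transcripts had the same coordinates and length. The interval printed with each member is that of its 1 listed transcript, while the members have 4 to 23 annotated transcripts. Whether the FPKM values are of that transcript or of the whole gene was not tested. Overlaps on the opposite strand were sought only within the 1 interval given for each gene. The percentages given as counting error cover counting only, at the inferred depth. The members and lists were chosen with earlier results of these data known. Named from each list were up to 3 genes in each direction with the largest change, an adjusted p under 0.05, a mean of at least 1 FPKM and no overlap between groups. MYC, CDKN2A, CDKN2D, the genes given as outside the E2F target list and individual markers of other cell types were named outside that rule, after their values were seen. Alternatives were a pseudocount of 0.1, a filter at mean FPKM of 1, a replicate block, equal sums, equal medians, quantile normalization and each library left out.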

Additional observations from a re-analysis of the deposited data

How the results depend on the processing

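Over the 12 alternatives, no log2 fold change of the 10 genes changed sign, and CCND1, CCND2 and CDKN1A were called in all. Members called numbered 5 in the main analysis, 3 to 4 without 1 library, with 2 to 3 higher and 1 to 2 lower, 5 with the replicate block, and 6, of which 3 were lower, with the filter on mean FPKM, equal sums, equal medians and quantile normalization. CCND2 had the largest change of the 10 in the main analysis (0.57 against -0.54 for CDKN1A), and CDKN1A had it with equal sums (-0.59 against 0.53), equal medians (-0.57 against 0.55) and quantile normalization (-0.57 against 0.54). Without 1 library, 4971 to 5371 genes of the table were called (2876 to 3138 higher and 2045 to 2271 lower), against 6098. The lists gave 8 to 9 partners, 5 to 6 turnover genes, 10 to 12 E2F targets, 9 to 11 p53 targets and 0 to 2 upstream regulators. Of the upstream regulators, 3 were called in the main analysis, 1 with the replicate block and 0 with equal sums (limma, 3 higher and 1 lower at an unadjusted p under 0.05), and the cause was not tested. The summed differences without 1 library were 25.2 to 29 FPKM for D-type cyclins and -1.48 to -0.918 FPKM for E-type cyclins. They were 5.46 to 8.91 FPKM for the kinases CDK4 and CDK6 and -12.4 to -8.10 FPKM for CIP/KIP inhibitors. No shared effect of the replicate number was seen. Correlations of deviations were -0.040, -0.021 and -0.108 between same-numbered libraries, and -0.069 to 0.110 between libraries of unlike number. These values cannot tell whether same-numbered libraries came from the same experiment. With the replicate block, 5096 genes were called and no member's call changed. With the block 10 E2F targets were called higher and none lower (limma, 1 lower at an unadjusted p under 0.05). The table holds no counts, and CCNE1, CCNE2 and CCND3 are the members with the fewest inferred fragments.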
